A study of Mus musculus with 12 samples.

Results

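The Sm and LSm proteins are small proteins that close into rings around RNA, and they form the core of the spliceosomal small nuclear ribonucleoproteins (snRNPs). The members described here were the mouse genes whose symbols begin with Snrp followed by a, b, c, d, e, f, g, n or a digit, or with Lsm followed by a digit. Of 28 matching symbols, 3 were pseudogenes (Snrp1c-ps1, Snrp1c-ps2 and Snrpert) and were left out, which gave 25 genes of the 56748 in the count table. In the table of splicing events, 24 of 19323 events belonged to 10 of these genes. One further event was assigned jointly to Snrpd1 and Gm14277 and was left out.

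Sm proteins assemble in the cytoplasm as a ring on the U1, U2, U4 and U5 snRNAs, a step carried out by the SMN complex, and the finished particles return to the nucleus to splice pre-mRNA. A nuclear LSm ring that contains Lsm8 binds the end of U6 snRNA, and a cytoplasmic ring that contains Lsm1 in its place takes part in mRNA decapping and decay. Sf3b1, the edited gene of this study, is a subunit of the U2 snRNP that takes part in branch point recognition, and many of the members belong to the same splicing machinery, while others work in mRNA decay or in histone mRNA processing.

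The libraries came from G1E-ER4 cells, a murine proerythroblast line that lacks Gata1 and carries GATA1 fused to an estrogen receptor domain, so that estradiol starts erythroid maturation. Both genotypes had received estradiol at 10-7 M for 24 h. The Sf3b1 K700E/+ group (3 libraries) was heterozygous for the mutation, the Sf3b1 +/+ group (3 libraries) carried none, and each genotype was 1 clone. Both clones had been through CRISPR-Cas9 editing with a hygromycin cassette, hygromycin selection, single-cell sorting and excision of the cassette by flippase. With 1 clone each, the difference between genotypes and any other difference between the 2 clones cannot be told apart. The labels do not say whether the libraries of a genotype are separate cultures, and the spread behind each p-value is that among 3 libraries of 1 clone, which may be technical. The libraries at 0 h were not analysed here.

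Total counts were 38785471 to 50077827 per library, and each member had between 622 and 21319 counts in a library, so all 25 passed the filter on low counts. Sf3b1 itself had a mean of 754 CPM (counts scaled to the normalized library size) in K700E/+ and 747 in +/+, and gene counts do not show the edited base. Counts of Gata1 do not separate the introduced fusion from the gene's own locus. Gata1 had a mean of 320 CPM in K700E/+ and 160 in +/+, a log2 fold change of 1.00 (edgeR adjusted p = 9.43e-06). The part of this difference in the members' values was not tested. Erythroid markers were present in both genotypes, for example Klf1, which encodes an erythroid transcription factor, at 322 and 312 CPM. Of 10 erythroid markers, Hbb-bt, a beta globin gene, fell, and 8 did not pass the test. Of 8 granulocyte and macrophage markers 4 were tested and all 4 were lower in K700E/+, as were 23.1% of all tested genes. Of these, Lyz2, Cybb and Mmp8 had means of 0.0074, 0.015 and 0.030 CPM in K700E/+. They passed the filter only through their +/+ libraries, so their direction was fixed by the filter. The 8 markers summed to 1.26 to 1.71 CPM in K700E/+ against 11.4 to 33.0 CPM in +/+. The neutrophil elastase gene Elane was at 0 in every library. Of 4 megakaryocyte markers 3 were tested and none passed, with sums of 8.70 to 18.3 CPM against 16.003 to 27.6 CPM, and no lymphoid marker passed the filter. The part of these markers in the members' values was not tested.

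Of the 25 Sm and LSm genes, 7 rose in K700E/+, 2 fell and 16 did not pass the test (edgeR quasi-likelihood test, adjusted p under 0.05). Over all 12547 genes tested, 21.3% rose and 23.1% fell (44.4% in either direction), and the members' median log2 fold change was 0.06 against -0.01 for all genes tested. The risen genes were Snrpn, Snrpd2, Lsm14a, Snrpa1, Lsm14b, Snrpb and Snrpa, and the fallen ones were Lsm6 and Lsm4. The libraries of the genotypes did not overlap for 12 members, as for 54.3% of all genes tested. All 5 members that lie on chromosome 7 were among the 7 that rose, and 60.0% of all tested genes of that chromosome rose.

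**Figure D1:**
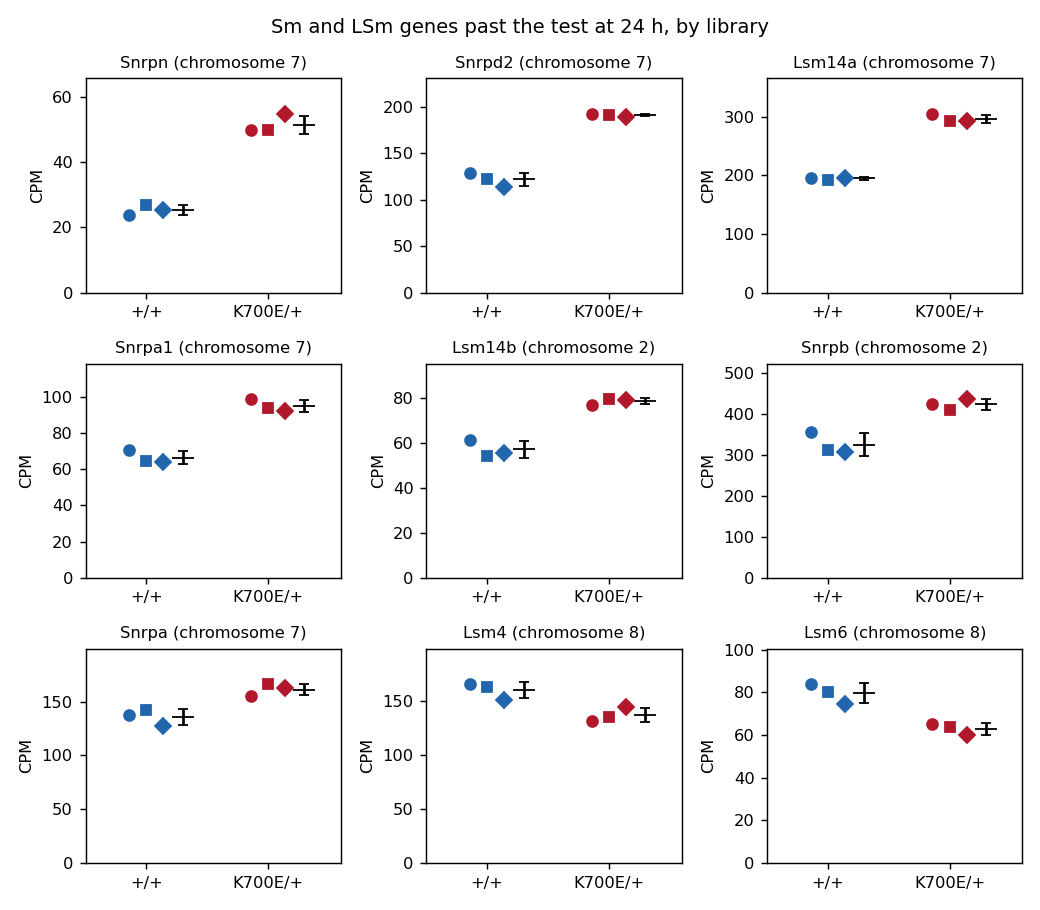
Normalized CPM (vertical axes, from 0) of the 9 members past the test, in Sf3b1 +/+ libraries (blue) and Sf3b1 K700E/+ libraries (red). Circles, squares and diamonds are replicates 1, 2 and 3, and the bars beside them give the mean and SD (n = 3). The genotypes do not overlap in any of the 9 panels, and Lsm4 and Lsm6 are the genes with lower values in K700E/+.

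Among the genes of the Sm ring, Snrpn, Snrpd2 and Snrpb rose, and the other 5 did not pass the test. Snrpn encodes SmN, a relative of SmB that is best known from brain, and its locus is imprinted. Snrpn had 49.8, 50.03 and 54.8 CPM in the K700E/+ libraries and 23.7, 26.9 and 25.4 CPM in the +/+ libraries. Every K700E/+ library lay well above every +/+ library. The difference was 2.03-fold, a log2 fold change of 1.02 (SE 0.075, edgeR adjusted p = 1.26e-05), and Snrpn was the only member past the stricter rule that also asks for an absolute log2 fold change over 1, which 10.3% of all genes passed. It missed that rule without K700E/+ replicate 3 or without +/+ replicate 1, at log2 fold changes of 0.98 and 0.98. Snurf, annotated at the same locus, had no count in any library. How reads that fit both genes were assigned was not examined.

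Snrpb encodes SmB, the ring subunit whose place SmN takes. It had 425, 410 and 436 CPM in K700E/+ and 357, 311 and 306 CPM in +/+. The highest +/+ library, replicate 1, stayed below the lowest K700E/+ library. The log2 fold change was 0.38 (SE 0.071, edgeR adjusted p = 0.00215). Because SmB and SmN are alike, the sequences were compared to see whether reads of the paralogs could be exchanged. The first 150 bases of both coding sequences are shown, in GENCODE M21 on GRCm38, with the bases at which they differ in capitals.
Snrpb (chromosome 2): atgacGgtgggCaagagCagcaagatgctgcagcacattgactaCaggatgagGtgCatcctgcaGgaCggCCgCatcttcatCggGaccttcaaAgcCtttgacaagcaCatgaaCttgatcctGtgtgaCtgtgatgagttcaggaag
Snrpn (chromosome 7): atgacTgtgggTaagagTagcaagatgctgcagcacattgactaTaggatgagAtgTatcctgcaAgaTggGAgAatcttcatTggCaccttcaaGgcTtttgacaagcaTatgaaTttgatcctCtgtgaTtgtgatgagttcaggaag
They differ at 19 of these 150 bases. Over the whole coding sequences, of 693 and 720 bases, 77.9% of aligned positions were identical. The longest run that both transcripts share was 32 bases, and none of the 1087 windows of 75 bases, the length of a read, in the Snrpb transcript occurred in the Snrpn transcript. An error-free read of that length could therefore not come from both of these annotated transcripts.

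Snrpd2 encodes SmD2, which sits beside SmD1 in the ring. It had 192, 191 and 189 CPM in K700E/+ and 128, 123 and 114 CPM in +/+. The K700E/+ libraries were close to each other and all above the +/+ libraries, with a log2 fold change of 0.65 (SE 0.060, edgeR adjusted p = 4.51e-05). Snrpd1, its partner, had 146, 148 and 136 CPM against 167, 153 and 144 CPM, with overlapping libraries (adjusted p = 0.23). Snrpe, Snrpf, Snrpg and Snrpd3, which complete the ring, had log2 fold changes between -0.10 and -0.01, none past the test.

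Proteins particular to the U1 and U2 snRNPs formed a group of 4 members, of which 2 rose, against 21.3% of all genes tested. These 2, Snrpa1 and Snrpa, lie on chromosome 7, where 60.0% of tested genes rose. Snrpa1 encodes a leucine-rich repeat protein of the U2 snRNP. It had 98.8, 93.7 and 92.4 CPM in K700E/+ and 70.4, 64.7 and 64.3 CPM in +/+, again without overlap, with a log2 fold change of 0.51 (SE 0.062, edgeR adjusted p = 0.000199). Snrpb2 encodes the protein that binds U2 snRNA together with it, and its log2 fold change was -0.01 (adjusted p = 0.928). Snrpa encodes the protein that binds a stem loop of U1 snRNA. It had 155, 166 and 162 CPM against 137, 142 and 127 CPM, a log2 fold change of 0.25 (SE 0.062, edgeR adjusted p = 0.0103). Its genotypes were separate, but the difference was the smallest among the members that rose. Snrpc, which encodes a zinc finger protein of the U1 snRNP, had a log2 fold change of 0.04 (adjusted p = 0.607).

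None of the 8 genes of the LSm rings rose and 2 fell, the latter near the 23.1% of all tested genes that fell. Lsm6, a subunit of both the nuclear and the cytoplasmic ring, had 65.2, 63.5 and 59.9 CPM in K700E/+ and 83.7, 80.4 and 74.6 CPM in +/+. All K700E/+ libraries were below all +/+ libraries, and the log2 fold change was -0.34 (SE 0.066, edgeR adjusted p = 0.00292). Lsm4, another subunit of both rings, had 132, 136 and 144 CPM against 166, 163 and 152 CPM, without overlap, and a log2 fold change of -0.22 (SE 0.062, edgeR adjusted p = 0.0173). The call of Lsm4 was lost without K700E/+ replicate 1 (adjusted p = 0.0657), without K700E/+ replicate 2 (adjusted p = 0.0720) and without +/+ replicate 2 (adjusted p = 0.0851). Lsm8, found only in the nuclear ring, and Lsm1, found only in the cytoplasmic ring, had log2 fold changes of 0.11 and -0.02 (adjusted p = 0.236 and 0.846). Lsm7, shared by both rings, had 43.7, 41.1 and 42.5 CPM against 42.1, 36.9 and 34.2 CPM, with overlapping libraries and a log2 fold change of 0.17 (adjusted p = 0.131). It passed with the replicate number as a block (edgeR adjusted p = 0.0321) and without +/+ replicate 1 (adjusted p = 0.0105). The remaining genes of the LSm rings, Lsm2, Lsm3 and Lsm5, had log2 fold changes of -0.03, 0.12 and 0.07, none past the test.

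Lsm10 and Lsm11 take the place of SmD1 and SmD2 in the ring of the U7 snRNP, which processes the ends of histone mRNAs. They were the members with the lowest CPM, with means between 14.7 and 17.8, and log2 fold changes of -0.12 and 0.06 (edgeR adjusted p = 0.28 and 0.577). Of the other LSm domain proteins, Lsm14a and Lsm14b rose. Both encode proteins related to RAP55, a component of processing bodies linked to translational repression. Lsm14a had 304, 292 and 293 CPM in K700E/+ and 195, 193 and 196 CPM in +/+. The libraries of each genotype lay close together, and the log2 fold change was 0.61 (SE 0.052, edgeR adjusted p = 2.78e-05). Lsm14b had 76.9, 79.3 and 78.9 CPM against 61.2, 54.1 and 55.6 CPM, a log2 fold change of 0.46 (SE 0.065, edgeR adjusted p = 0.00047). Lsm12 had a log2 fold change of 0.16 (edgeR adjusted p = 0.0929), and it passed with the replicate number as a block (adjusted p = 0.0468) and without replicate 1 of both genotypes (adjusted p = 0.0126), which was tried after the data had been seen.

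The members on chromosome 7 rose on a chromosome whose genes rose as a whole. Of 954 tested genes placed on chromosome 7, 60.0% rose and 7.34% fell, and their median log2 fold change was 0.46, a 1.38-fold difference. On the 19 other chromosomes (numbered chromosomes and X) the medians lay between -0.09 and 0.03, and 14.9% to 21.3% of genes rose. The shift was present along the whole of chromosome 7, where the medians of 15 windows of 10 Mb lay between 0.35 and 0.63. It was also present in every K700E/+ library, in which the median of 651 chromosome 7 genes with at least 5 CPM was 0.50, 0.51 and 0.53 above the +/+ mean (log2 of CPM + 0.5). The medians of the +/+ libraries were -0.02, 0.03 and -0.0021. Those of the 8120 genes not placed on chromosome 7 lay between -0.02 and 0.01 in the 6 libraries. The number of copies of chromosome 7 in the 2 clones was not measured in these files, and its part in the members' values was not tested.

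**Figure D2:**
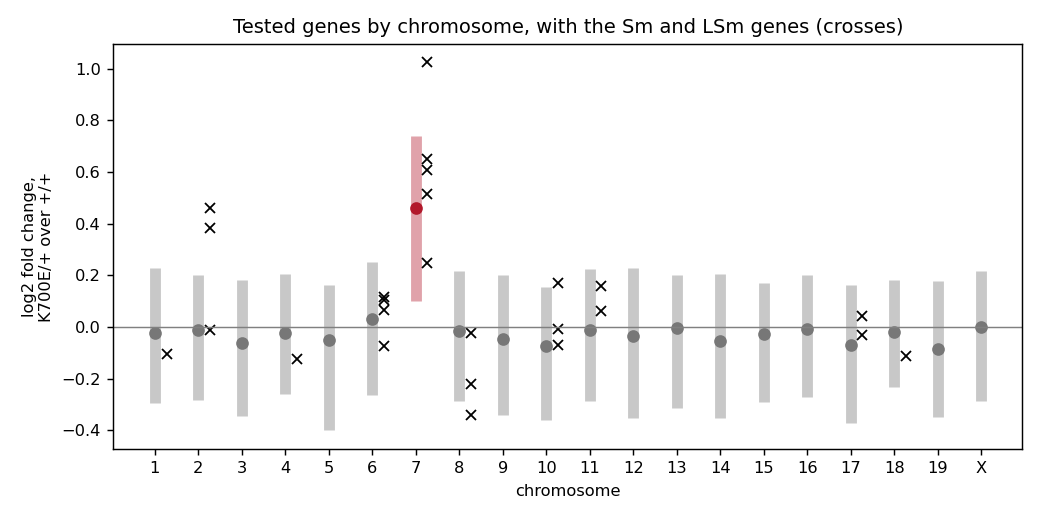
Log2 fold changes of tested genes (vertical axis, Sf3b1 K700E/+ over +/+) by chromosome. Points are medians, bars span the middle 50% of genes, and crosses are the single Sm and LSm genes. The chromosome 7 median (red) is 0.46, the other medians lie between -0.09 and 0.03, and all 5 crosses of chromosome 7 lie above 0.

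The 5 chromosome 7 members were spread around the median of their chromosome. Snrpn lay at percentile 89.6 of the log2 fold changes of chromosome 7, Snrpd2 at 67.5, Lsm14a at 62.4, Snrpa1 at 54.5 and Snrpa at 32.5. The fallen members Lsm4 and Lsm6 lie on chromosome 8, whose median was -0.02. Of the 20 members on other chromosomes, 2 rose, 2 fell and 16 did not pass the test, and their median log2 fold change was -0.01. On those chromosomes 18.3% of all tested genes rose and 24.5% fell.

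When the libraries were scaled separately within each chromosome, an alternative chosen after the data had been seen, 5 members were higher and 3 lower, against 20.7% and 22.0% of all genes. Snrpn stayed higher, at a log2 fold change of 0.56 (SE 0.069, edgeR adjusted p = 0.000246), and was no longer past the stricter rule. Snrpd2 kept a log2 fold change of 0.19 (adjusted p = 0.0441), while Lsm14a and Snrpa1 lost the call at 0.15 and 0.05 (edgeR adjusted p = 0.0583 and 0.577). Snrpa turned to -0.21 (edgeR adjusted p = 0.020), so it was lower than its chromosome as a whole. Snrpb, Lsm14b, Lsm6 and Lsm4 kept their calls, at 0.40, 0.47, -0.32 and -0.20, and Lsm7 passed at 0.25 (adjusted p = 0.0397). Among the members that rose, Snrpb and Lsm14b, which both lie on chromosome 2, moved least between the scalings. The median of chromosome 2 was -0.01, so scaling within it could move them little, and their small move is no check of their calls.

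**Figure D3:**
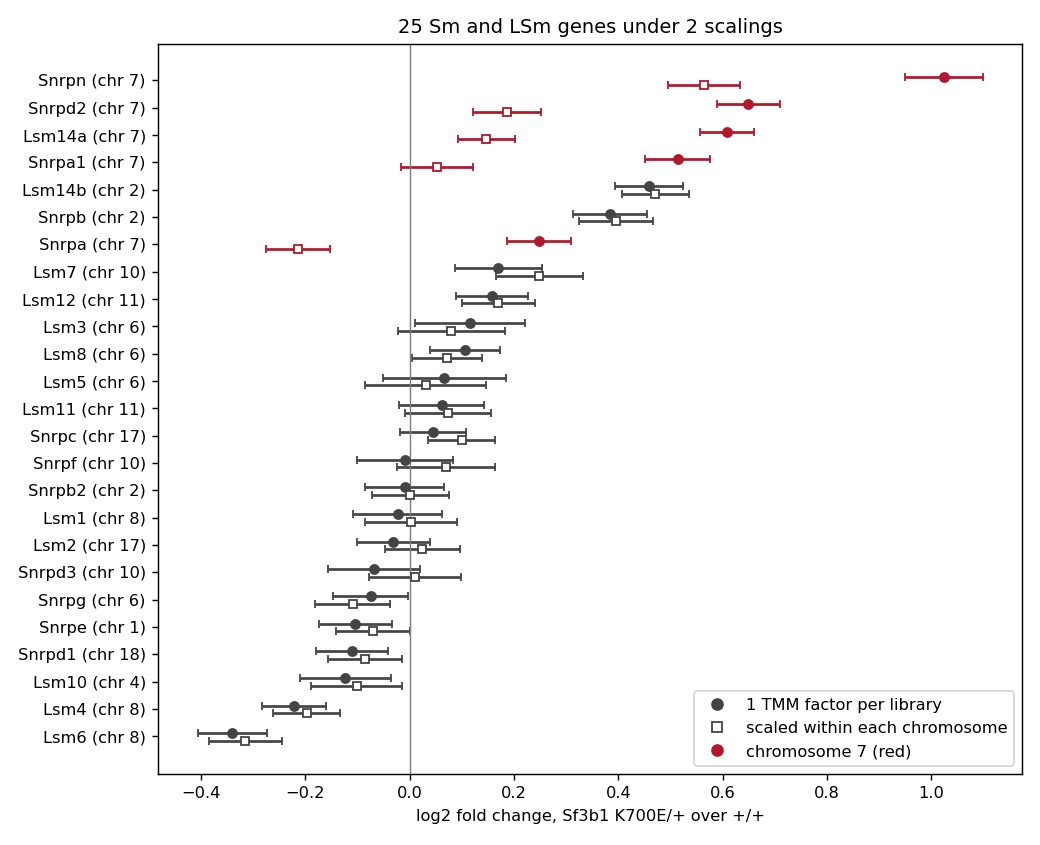
Log2 fold changes of the 25 members (horizontal axis, Sf3b1 K700E/+ over +/+, bars are SE) with 1 scaling factor per library (filled circles) and with scaling within each chromosome (open squares). Members on chromosome 7 are in red. Snrpa goes from 0.25 to -0.21 and Snrpn from 1.02 to 0.56, and the members on other chromosomes move little.

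The splicing events gave, for each of 10 members, the share of the path that includes a variable part (PSI, percent spliced in, given here as a fraction). PSI was computed from reads divided by path length, so it differs from the share of raw reads. An event was called at an adjusted p under 0.05 with an absolute PSI difference over 0.10. Of the 24 events, 8 were retained introns, 6 were skipped exons, 5 were alternative donors, 2 were alternative acceptors and 3 were composite. None of the 24 was called by edgeR, against 6.33% of the 18114 testable events of all genes. At an unadjusted p under 0.05 there were 3 by edgeR (the introns of Lsm4 and Lsm14b described next and a 78-nt exon of Lsm14b), and limma on the logit of PSI gave 2 at that level and called 0. One event passed the adjusted p alone, as 9.52% of all events did. The remaining 15 members had no event in the table.

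**Figure D4:**
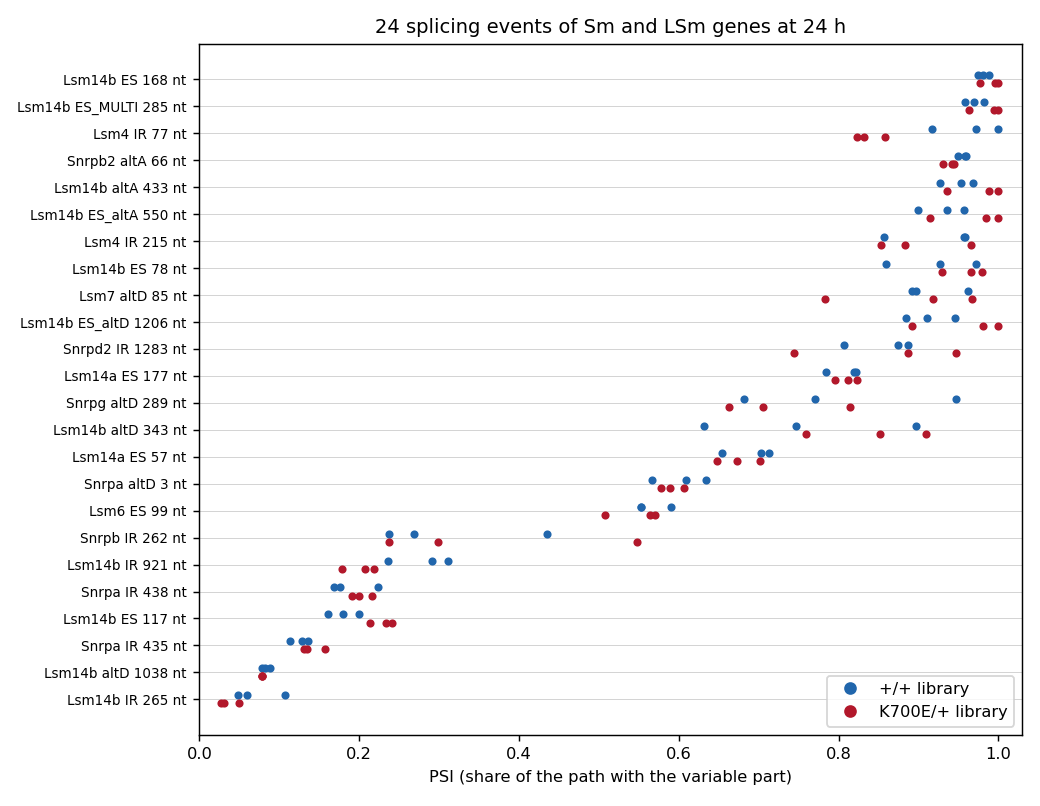
PSI (horizontal axis, fraction from 0 to 1) of the 24 member events in each Sf3b1 +/+ library (blue) and Sf3b1 K700E/+ library (red), ordered by the +/+ mean. IR is a retained intron, ES a skipped exon, altD and altA alternative donors and acceptors, with the length of the variable part. The genotypes are separate in 4 of the 24 events, the widest gap being that of the 77-nt intron of Lsm4.

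The largest PSI difference was in Lsm4, one of the fallen members, at a 77-nt intron on chr8:71125903-71126061 (GRCm39, plus strand) whose splice sites were not annotated. Its retention was 0.858, 0.832 and 0.823 in K700E/+ and 0.917, 0.971 and 1.00 in +/+. The K700E/+ libraries were all lower, with 15 spliced reads in all against 3. The PSI difference was -0.125 (edgeR adjusted p = 0.0596). It was called with the replicate number as a block (adjusted p = 0.0497) and without +/+ replicate 1 (adjusted p = 0.0357). The small number of spliced reads limits the precision of this difference.

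Lsm14b, which rose, held 11 of the 24 events, all within 1 stretch of chromosome 2, and 7 of them shared the reads of their shorter path with another event, so they are not independent. Its 265-nt intron on chr2:179673281-179673626 (GRCm39) was the event past the adjusted p. Retention was 0.0502, 0.0266 and 0.0304 in K700E/+ and 0.107, 0.0602 and 0.0483 in +/+. The libraries overlapped, since K700E/+ replicate 1 was above +/+ replicate 3. The PSI difference was -0.036 (edgeR adjusted p = 0.0181), below the 0.10 that a call asks for, and the adjusted p was 0.0818 without K700E/+ replicate 3, 0.136 without K700E/+ replicate 2 and 0.224 without +/+ replicate 1 (0.254 with limma on all libraries).
A 921-nt intron of Lsm14b had a PSI difference of -0.078 (edgeR adjusted p = 0.328) with separate genotypes, and an alternative donor that adds 343 nt had one of 0.081 (adjusted p = 0.357). Inclusion of a 117-nt exon was 0.233, 0.214 and 0.241 in K700E/+ and 0.161, 0.199 and 0.180 in +/+. These genotypes did not overlap either, as in 25.9% of all testable events, but the adjusted p was 0.337.

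A pair of coding exons is printed because they are alternative parts of the LSm domain genes that rose. The first is the 117-nt exon of Lsm14b, included in the smaller share of reads, and the second is a 177-nt exon of Lsm14a, mostly included. Both come from GENCODE M21 transcripts (GRCm38), matched to the events by their length and by the distance between the flanking exons.
Lsm14b 117-nt exon (chromosome 2, plus strand): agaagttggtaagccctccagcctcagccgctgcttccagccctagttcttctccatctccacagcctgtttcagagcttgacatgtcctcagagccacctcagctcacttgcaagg
Lsm14a 177-nt exon (chromosome 7, minus strand): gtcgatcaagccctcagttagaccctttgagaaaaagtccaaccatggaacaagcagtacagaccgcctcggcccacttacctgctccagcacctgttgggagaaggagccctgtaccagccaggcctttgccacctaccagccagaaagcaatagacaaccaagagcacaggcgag
They are 39 and 59 codons long, so that skipping either keeps the reading frame. Inclusion of the 177-nt exon of Lsm14a was 0.796, 0.811 and 0.823 in K700E/+ and 0.784, 0.821 and 0.820 in +/+. The libraries overlapped, with a PSI difference of 0.002 (edgeR adjusted p = 0.983), although the gene itself rose. A 57-nt exon of Lsm14a had a PSI difference of -0.016 (adjusted p = 0.813).

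Snrpn and Snrpa1, which rose, had no event in the table. The events of the other members that changed in level were not called either. In Snrpa, a pair of donors 3 nt apart had mean PSI of 0.591 and 0.603, and the 438-nt retained intron had 0.202 and 0.189, in K700E/+ and +/+ respectively. In Lsm6, a 99-nt exon was included at 0.563, 0.570 and 0.508 against 0.590, 0.553 and 0.553, with overlapping libraries and a PSI difference of -0.018 (edgeR adjusted p = 0.803). A 262-nt intron of Snrpb was retained at 0.298, 0.547 and 0.238 against 0.435, 0.269 and 0.238, values that varied more between libraries than between genotypes. It had as few as 14 reads in a library. An intron of Snrpd2 with 1 annotated splice site had mean retention of 0.859 and 0.856 (adjusted p = 0.969). Those means rested on 10 spliced reads in all in K700E/+ and 4 in +/+. Among members that did not pass the test in level, a 66-nt alternative acceptor part of Snrpb2 was included at 0.930, 0.942 and 0.945 in K700E/+ and 0.949, 0.960 and 0.958 in +/+. Its genotypes were separate, with a PSI difference of -0.017 (edgeR adjusted p = 0.255). Alternative donors of Snrpg and Lsm7 had PSI differences of -0.072 and -0.027 (adjusted p = 0.778 and 0.782), with overlapping libraries. Their shorter paths held few reads, 22 and 12 in all in K700E/+ and 16 and 6 in +/+.

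The genes that work with the members were examined as 6 lists of 61 genes, of which 60 were tested. In all 20 rose, 8 fell and 32 did not pass the test, with a median log2 fold change of 0.12, where 21.3% of all tested genes rose and 23.1% fell. These shares are also the background for each of the 6 lists. Of the 60 tested genes, 7 lie on chromosome 7, and all 7 rose, as did 60.0% of all tested genes of that chromosome. Of the 53 others, 13 rose and 8 fell, with a median of 0.08, against 18.3% and 24.5% of the genes off chromosome 7. The list of snRNP assembly factors, which load the Sm ring onto snRNA and import the particle, had 8 genes higher and 1 lower of 18 tested. Clns1a, which encodes the Sm protein chaperone pICln and lies on chromosome 7, had a log2 fold change of 0.82 (edgeR adjusted p = 5.36e-05), and 0.36 with scaling within chromosomes. Gemin5, the subunit of the SMN complex that recognizes snRNA, and Gemin7 had 0.46 and 0.53 (adjusted p = 0.00161 and 0.000368). Gemin7 lies on chromosome 7, and its call was lost with scaling within chromosomes (adjusted p = 0.423). The cap-binding gene Ncbp1 was lower, at -0.33 (edgeR adjusted p = 0.00161). Smn1, the central subunit of the SMN complex, had 0.17 (adjusted p = 0.119).

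Of 7 snRNP proteins named outside the rule, 3 rose and 1 fell. Snrnp70, the U1-70K protein, had a log2 fold change of 0.47 (edgeR adjusted p = 0.000174), which is on chromosome 7 and became 0.01 (adjusted p = 0.922) with scaling within chromosomes. The U5 helicase gene Snrnp200 was lower, at -0.44 (edgeR adjusted p = 0.00192), while Snrnp40 and Snrnp25 were higher, at 0.34 and 0.38. Of 13 proteins of the U4/U6.U5 tri-snRNP, 4 rose and 2 fell. Prpf31 and Cd2bp2, both on chromosome 7, had 0.70 and 0.61 (edgeR adjusted p = 4.89e-05 and 5.61e-05), Usp39 had 0.45 (adjusted p = 0.000358) and Sart1 had -0.29 (adjusted p = 0.0022). With scaling within chromosomes Prpf31 had 0.24 (adjusted p = 0.0243) and the call of Cd2bp2 was lost (adjusted p = 0.0680).

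Of 7 genes for maturation and recycling of U6 snRNA, the RNA that the nuclear LSm ring binds, 1 rose and 1 fell. They were Mepce, which caps small RNAs, at 0.31 and Larp7 at -0.38 (edgeR adjusted p = 0.00978 and 0.000492). Of 8 decapping and decay partners of the cytoplasmic ring, 1 rose and 2 fell. Dcp1b was at -0.47, the exonuclease gene Xrn1 at -0.31 and Dcp1a at 0.22 (edgeR adjusted p = 0.0049, 0.0116 and 0.0329). Of 7 genes for histone pre-mRNA processing, in which the U7 ring works, 3 rose and 1 fell. Zfp473, which encodes a U7 snRNP associated zinc finger protein and lies on chromosome 7, had 1.12 (edgeR adjusted p = 0.000104, and 0.66 with scaling within chromosomes), Sympk on the same chromosome 0.43 (adjusted p = 0.000273, and -0.03 with scaling within chromosomes), Cstf2 0.37 (adjusted p = 0.00529) and Cpsf3 -0.22 (adjusted p = 0.0102).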

How the data were processed

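Per the labels and the methods of the study, poly(A) RNA was sequenced as paired 75-base reads and aligned by the authors with STAR 2.7.9 to GRCm39. The annotation release is not given in the sources used here. The authors deposited raw counts per gene and, for splicing events found with KisSplice, packed read numbers of both paths with a PSI per library. They used DESeq2 1.30.1, and none of their comparison results were used. Counts were fitted in R 4.3.3 with edgeR 4.0.16 (filterByExpr, TMM, quasi-likelihood F test, Benjamini-Hochberg adjustment over all 12547 genes), and CPM used TMM-effective library sizes. PSI was recomputed from reads per path length, which correlated with the deposited PSI at 0.983 across 110811 values (13.2% within 0.01). Events were fitted in edgeR as path by genotype where every library had 10 or more reads. limma 3.58.1 and DESeq2 1.42.0 served as alternatives, and the steps were tested on simulated data. Chromosomes came from GENCODE M21, and 280 tested genes were not matched. Members, gene lists and named genes were chosen with earlier results of these data known. The rule took every member, the lists' genes of lowest adjusted p, all called events and the 3 largest uncalled ones. Smn1 and further uncalled member events were described beyond that rule. Same-numbered libraries deviated together (r = 0.63, 0.48 and 0.48 over 8771 genes), so the numbers were taken to pair them. The main fits left this pairing out. It entered only as an alternative, with the replicate number as a block. Replicate 1 stood apart in both genotypes. The result of 1 marker gene is not reported here.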

Additional observations from a re-analysis of the deposited data

How the results depend on the processing

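With the replicate block 9 members rose and 2 fell, 1 event was called, and 29 neighbour genes rose and 11 fell. The pairing ended no member's call, and among the neighbour genes named by the rule it added Dcp2 (-0.16). Leaving out 1 library at a time gave 7 to 8 members higher, 1 to 2 lower and 0 to 1 past the stricter rule, 0 to 1 events called, and 14 to 27 neighbour genes higher and 5 to 9 lower. Scaling within chromosomes left 0 members past the stricter rule and turned Snrpa to -0.21 and Sympk to -0.028. Members near 0 in log2 fold change, none past the test, changed sign without a call. With that scaling Lsm1 was at 0.0018, Lsm2 at 0.024, Snrpb2 at 0.0011, Snrpd3 at 0.010 and Snrpf at 0.070. Without replicate 1 of both genotypes Lsm2 was at 0.055 and Snrpf at 0.014. Without a filter on low counts Snrpb2 was at 0.0065 and Snrpf at 0.0066, and with DESeq2 at 0.0065 and 0.0063. Leaving out 1 library moved Lsm1 between -0.078 and 0.044, Lsm2 between -0.077 and 0.039, Lsm5 between -0.012 and 0.18, Snrpb2 between -0.059 and 0.050, and Snrpf between -0.096 and 0.060. Among neighbour genes, edgeR calls were lost for Dcp1a without K700E/+ replicate 1 or 2 or +/+ replicate 2 or 3, for Xrn1 without replicate 2 of either genotype, for Cpsf3 without +/+ replicate 2 and for Snrnp25 without +/+ replicate 3. The other counts of members and events stayed within 1.5 times of their values. The library with the fewest reads over both paths of an event had a median of 312 reads over the 24 events.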
